A study of Mus musculus with 9 samples.

Results

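Arid1a, Arid1b and Arid2, the genes of the ARID subunits of the BAF and PBAF chromatin remodelling complexes, were followed in 9 RNA-seq libraries of mouse stomach glands. They are 3 of the 18423 genes in the deposited table and were chosen by name, as the AT-rich interaction domain (ARID) subunits of these complexes, and all 3 passed the filter on low values and are among the 11209 genes tested. The title of the series puts the dosage of Arid1a in gastric tumours at its centre, so the questions here are how far Arid1a RNA was lower where a copy can be deleted, and whether Arid1b or Arid2 stood higher there. Poly(A) RNA came from glands freed with EDTA and scraped off the corpus, the acid-secreting part of the stomach, where tumours lay or at the matching place in normal stomachs.

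The 9 libraries fall into 3 genotypes with 3 libraries each. WT mice were wild type. Ctrl mice were Atp4bCre; Rosa26NICD: Cre recombinase follows Atp4b, a proton pump gene of acid-secreting parietal cells, and the Rosa26 locus carries NICD, the active intracellular part of the Notch receptor. Arid1a_Het mice were Atp4bCre; Rosa26NICD; Arid1aflox/+, so they shared both transgenes with Ctrl and had 1 loxP-flanked (flox) and 1 normal copy of Arid1a. Only cells in which Cre was active, and their descendants, can lose the flox copy, while the RNA was taken from whole glands. The exons that loxP flanks are not given in the sources used here. Gene-level values therefore cannot set RNA over the deleted part apart from the rest of Arid1a. The labels give no age or sex and do not tell whether each library of a genotype is a different animal, and a p-value here therefore speaks for the spread among the libraries alone, which can be technical in part. The third Arid1a_Het library was registered separately.

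SWI/SNF complexes use ATP to move nucleosomes and so open or close regulatory DNA. The canonical form, BAF, holds either ARID1A or ARID1B, never both at once, whereas PBAF holds ARID2 in their place, and a non-canonical form, ncBAF, has no ARID subunit. ARID1A is among the genes most often inactivated by mutation in gastric cancer, and cells without it depend on ARID1B for the remaining BAF complexes.

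On GRCm38, by the GENCODE M21 annotation, Arid1a lies at chr4:133679008-133756769 on the minus strand. Arid1b lies at chr17:4994332-5347656 and Arid2 at chr15:96287518-96404992, both on the plus strand. Arid1a and Arid1b are close paralogs, so it matters for the values below whether a read can be told apart between them. The most alike stretch of 120 coding bases within a single exon of each gene is printed here for that reason, read in frame without gaps from the transcripts with the longest coding sequence. It lies in exon 20 of 20 of each transcript, at chr4:133681084-133681203 on the minus strand and chr17:5342215-5342334 on the plus strand. Capitals mark the bases that differ between the genes.
Arid1a: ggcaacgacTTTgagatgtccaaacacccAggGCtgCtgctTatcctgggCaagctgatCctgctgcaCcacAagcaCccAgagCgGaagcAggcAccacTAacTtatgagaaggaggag
Arid1b: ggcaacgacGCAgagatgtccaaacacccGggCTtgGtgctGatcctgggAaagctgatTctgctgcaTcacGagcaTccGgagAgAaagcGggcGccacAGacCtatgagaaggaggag
Of the 120 bases, 99 were the same (82.5%) and 21 differed. Over all annotated transcripts of both genes the longest run shared letter for letter was 29 bases, and Arid2 shared no run longer than 19 bases with either gene. A read longer than 29 bases that matches exactly therefore fits only 1 of the 3 genes. The read length and the treatment of reads with several matches are not given in the sources used here.

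Library depth was 22663391 to 29487302 whole reads, as worked out from the table. The 3 genes held 1190 to 5029 reads each in a library, so the 95% counting interval of a value reached at most 5.85% above it. The SD over the libraries of a genotype was 4.73% of the mean for Arid2 in Ctrl and 9.73% to 37.1% for the other members and genotypes. An SD and the reach of a 95% interval are unlike measures. All 12 parietal, 6 chief and 6 pit cell markers of the lists were above 0 in every library. So were all markers of the fibroblast and the smooth muscle and endothelium lists, so values above 0 do not by themselves identify the corpus. Its makeup varied: the parietal markers summed to 3054 to 15045 FPKM (fragments counted per gene, scaled to its length and to the mapped reads) in WT, 463 to 1534 in Ctrl and 668 to 5925 in Arid1a_Het glands. The 10 leukocyte markers summed to 56.1 to 120.0 FPKM in WT, 404 to 674 in Ctrl and 425 to 797 in Arid1a_Het. The 5 squamous forestomach markers summed to 46.0 to 218 FPKM in WT, 240 to 679 in Ctrl and 196 to 686 in Arid1a_Het. The 6 cell cycle markers summed to 18.7 to 95.9 FPKM in WT, 96.2 to 104.6 in Ctrl and 38.7 to 81.9 in Arid1a_Het. Pit cell markers summed to 68462 to 93732 FPKM in WT, 37050 to 44003 in Ctrl and 44509 to 79749 in Arid1a_Het. For both of these lists the Arid1a_Het and Ctrl sums did not overlap, whereas for every other list they did. Pgc, the pepsinogen gene of chief cells, alone took 16.5% of all FPKM in WT 2 and 17.9% in Arid1a_Het 2, against 1.49% to 8.38% elsewhere. The median-ratio size factors of these 2 libraries, 0.771 and 0.857, were the lowest, against 1.02 to 1.16 in the other 7. Of the pancreas list, Clps was high in every library, and the 8 other genes in the table summed to 2897 FPKM in Ctrl 1 and 1162 in Arid1a_Het 3 and at most 6.60 elsewhere. The part of these differences in the results below was not tested beyond the values given.

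Arid1a was lowest in the libraries with the flox copy. WT held 13.5, 7.79 and 12.0 FPKM in libraries 1 to 3, Ctrl 14.9, 13.3 and 16.2, and Arid1a_Het 8.94, 5.90 and 6.96. All 3 Arid1a_Het values lay below all 3 Ctrl values, and WT 2 lay inside the Arid1a_Het range while the other WT libraries lay above it. The means were 11.1 ± 2.94, 14.8 ± 1.44 and 7.26 ± 1.54 FPKM (SD, n = 3). In whole reads, Arid1a had 1915 to 2939 in Arid1a_Het libraries and 3874 to 5029 in Ctrl.

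**Figure D1:**
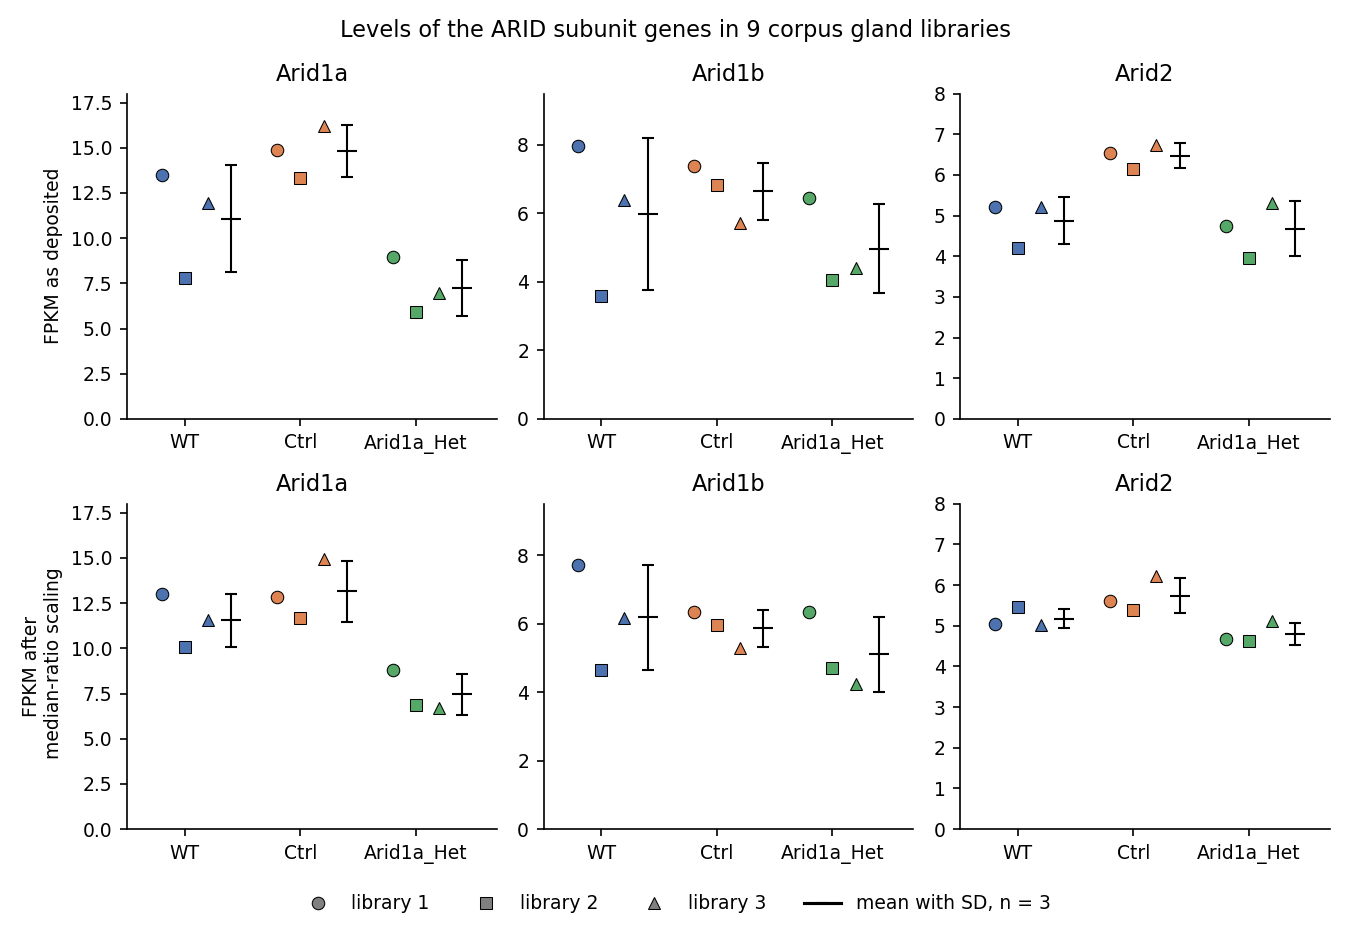
FPKM of Arid1a, Arid1b and Arid2 (vertical axes) in each library by genotype, as deposited in the upper row and after median-ratio scaling in the lower row, with mean and SD beside the points. Arid1a is lowest in Arid1a_Het in both rows, and WT 2 overlaps that group (7.79 FPKM) only as deposited.

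The fitted difference of Arid1a between Arid1a_Het and Ctrl was a log2 fold change of -0.95 on the log2(FPKM + 1) scale, with a 95% interval from -1.44 to -0.46 and a standard error of 0.22 (limma). This is 0.518 of the Ctrl level on that scale, and the interval, 0.370 to 0.726, holds -1, a halving on that scale, but not 0. Adding 1 to each FPKM makes a fold change slightly smaller than it is. Over all 11209 genes the adjusted p was 0.299, so Arid1a was not called at the threshold of 0.05. Its unadjusted p of 0.00162 had rank 59 among all genes. An exact permutation test, two-sided, gave p = 0.1, the least that 3 against 3 libraries allow. Under the 23 alternative settings the log2 fold change ran from -1.09 to -0.75 and the limma adjusted p from 0.0575 to 0.950.

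In this comparison 0.00892% of the tested genes (1 of 11209) were called lower and 0% higher, with 1305 genes at an unadjusted p under 0.05 in limma and 0 called by limma voom on whole reads. None of the 3 ARID genes was called, and 2 of the 3 had an unadjusted p under 0.05, as did 11.6% of all tested genes. The called gene, named after its values were seen, was the microRNA locus Mir7688, listed at 0 FPKM in every Arid1a_Het library. It held 10.2, 8.47 and 8.59 FPKM in Ctrl but only 0.769, 0 and 0 in WT, so it was low or absent in wild type as well. The number called was 22 without Arid1a_Het 3, 3 without WT 3 and 2 without Arid1a_Het 1. Libraries that do not overlap were common: 22.2% of the tested genes had every Arid1a_Het value below every Ctrl value as deposited, and Arid1a is read against that share.

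Against WT the log2 fold change of Arid1a in Arid1a_Het was -0.53, with a 95% interval from -1.02 to -0.04 and an adjusted p of 0.245 (limma). By exact permutation, two-sided, p was 0.2. In this comparison 2.06% of the tested genes were called higher and 0.687% lower, none of them an ARID gene, with 1 of the 3 at an unadjusted p under 0.05, as were 17.2% of all tested genes, and 0 called by voom. Between Ctrl and WT, Arid1a had a log2 fold change of 0.42, interval -0.07 to 0.90 and adjusted p = 0.204 (limma), where 7.01% of genes were called higher and 3.04% lower. None of the 3 was among them (1 at an unadjusted p under 0.05, as were 32.1% of all tested genes, voom 0), nor with the replicate number as a block, which raised the number of calls in that comparison from 1127 to 2473. Arid1a passed in 2 of 23 alternatives in Arid1a_Het against WT and in 1 of 23 in Ctrl against WT. With array weights the limma adjusted p was 0.0318 against WT in Arid1a_Het and 0.0258 in Ctrl, within ranges of 0.0318 to 0.706 and 0.0258 to 0.537 over the alternatives.

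All genes together were shifted between these groups as deposited. The median log2 fold change over the tested genes was -0.16 in Arid1a_Het against Ctrl, 0.02 in Arid1a_Het against WT and 0.24 in Ctrl against WT. Relative to these medians, Arid1a stood at -0.79, -0.56 and 0.18. Only 2.86% of genes had a lower fold change than Arid1a in Arid1a_Het against Ctrl, and 7.40% in Arid1a_Het against WT. For Ctrl against WT, median-ratio scaling turned the split of calls from 786 higher and 341 lower into 618 and 618.

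Median-ratio scaling, which divides each library by the typical ratio of its genes to their geometric mean, lowered the SD of all 3 members in WT and in Arid1a_Het, for Arid1a from 2.94 to 1.47 and from 1.54 to 1.15 FPKM. In Ctrl the SD rose from 1.44 to 1.67 FPKM for Arid1a and from 0.306 to 0.435 for Arid2, and fell from 0.839 to 0.540 for Arid1b. Scaled Arid1a values were 13.0, 10.1 and 11.6 FPKM in WT, 12.8, 11.7 and 15.0 in Ctrl, and 8.78, 6.88 and 6.71 in Arid1a_Het. Every Arid1a_Het library was then below all 6 others, which 1.19% of the tested genes showed in that direction. The scaled log2 fold changes were -0.75 (interval -1.08 to -0.41) against Ctrl and -0.57 (-0.91 to -0.24) against WT, with limma adjusted p-values of 0.319 and 0.0774. A value of -1 lay inside the interval against Ctrl and outside that against WT.

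**Figure D2:**
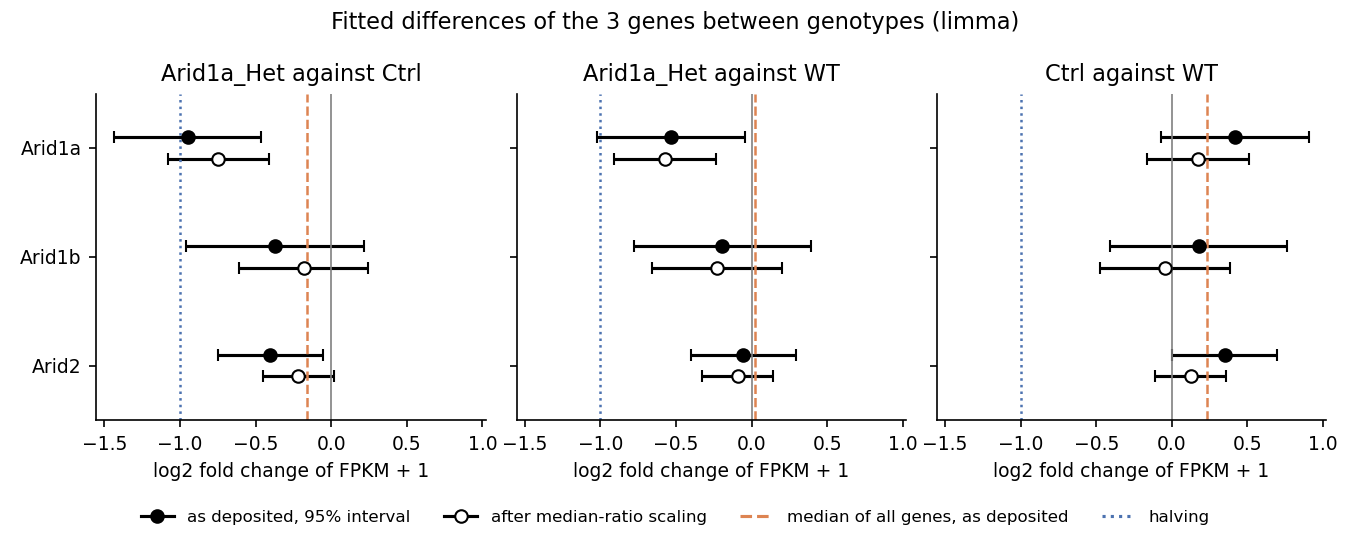
Fitted log2 fold changes of FPKM + 1 (horizontal axis) of the 3 genes in the 3 genotype comparisons, with 95% intervals, as deposited (filled) and after median-ratio scaling (open). The dashed line is the median of all genes as deposited and the dotted line a halving. As deposited, Arid1a lies farthest below that median in both Arid1a_Het comparisons, with log2 fold changes of -0.95 and -0.53.

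Arid1b, the subunit that takes the place of ARID1A in BAF, had its lowest mean in Arid1a_Het, with values that overlapped both other genotypes. WT libraries held 7.98, 3.59 and 6.38 FPKM, Ctrl 7.37, 6.82 and 5.73, and Arid1a_Het 6.46, 4.04 and 4.41. The 3 genotypes overlapped, and the lowest value of all was that of WT 2. The means were 5.98 ± 2.22 FPKM in WT, 6.64 ± 0.839 in Ctrl and 4.97 ± 1.30 in Arid1a_Het (SD, n = 3). Against Ctrl the log2 fold change was -0.37, with a 95% interval from -0.96 to 0.21 and adjusted p = 0.565 (limma). The upper end of that interval is a level 1.16 times that of Ctrl on the same scale, and any larger increase over whole glands lies outside the interval.

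Against WT the log2 fold change of Arid1b in Arid1a_Het was -0.19, interval -0.78 to 0.39, adjusted p = 0.792 (limma), and the upper end was 1.31 times the WT level. Leaving out WT 1 brought it to 0.01. Ctrl against WT gave 0.18, interval -0.41 to 0.76, adjusted p = 0.634 (limma). That sign was not stable, since it was -0.05 after median-ratio scaling and -0.10 without WT 2. After scaling the upper ends for Arid1a_Het were 1.18 times Ctrl and 1.15 times WT. In bulk glands, fewer cells that express a gene and less RNA per cell cannot be told apart.

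Arid2, the PBAF subunit, was highest in Ctrl. WT held 5.22, 4.21 and 5.20 FPKM, Ctrl 6.53, 6.14 and 6.74, and Arid1a_Het 4.75, 3.96 and 5.30. Each Ctrl value was above all 6 others as deposited, whereas WT and Arid1a_Het overlapped. Of the tested genes, 33.5% had every Ctrl value above every WT value. Every Arid1a_Het value was below every Ctrl value in 22.2%. The share with every Ctrl value above all 6 others was not counted. The means were 4.88 ± 0.578 FPKM in WT, 6.47 ± 0.306 in Ctrl and 4.67 ± 0.675 in Arid1a_Het (SD, n = 3). Arid1a_Het against Ctrl gave a log2 fold change of -0.40, interval -0.75 to -0.06, adjusted p = 0.404 (limma).

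For Arid1a_Het against WT the value of Arid2 was -0.05, interval -0.40 to 0.29, adjusted p = 0.918 (limma), and 0.04 without Arid1a_Het 2. Ctrl against WT had a log2 fold change of 0.35, interval 0.00 to 0.70, adjusted p = 0.153 (limma). It passed with array weights (adjusted p = 0.00672, within 0.00672 to 0.775 over the alternatives). Relative to the median of all genes these changes were -0.24, -0.08 and 0.11. After scaling, Ctrl held 5.62, 5.38 and 6.22 FPKM and WT 5.05, 5.46 and 5.03, so that these groups overlapped, while Arid1a_Het, at 4.66, 4.62 and 5.11 FPKM, stayed below Ctrl, as 9.98% of the tested genes did.

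FPKM is scaled by transcript length, so levels can be compared between the genes. Arid1a was the highest of the 3 in 9 of 9 libraries. Arid1b was second in 6 libraries and Arid2 in 3, namely WT 2, Ctrl 3 and Arid1a_Het 3, and their means did not differ beyond the spread in any genotype. Among 26 SWI/SNF genes in the table, the members included, Arid1a ranked 9th by mean FPKM over the 9 libraries, Arid1b 15th and Arid2 16th. The highest was Smarca4, the ATPase BRG1, at 47.6 FPKM against 11.1, 5.86 and 5.34 for Arid1a, Arid1b and Arid2.

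Ratios within a library do not depend on how the library was scaled, so they were used to ask whether Arid1a moved apart from its paralogs. Arid1a was 1.69, 2.17 and 1.87 times Arid1b in WT, 2.02, 1.96 and 2.83 times in Ctrl, and 1.38, 1.46 and 1.58 times in Arid1a_Het. Each Arid1a_Het ratio was below all 6 others. Of all tested genes set against Arid1b in the same way, 0.259% showed this. By the difference of mean log2 ratios, the ratio in Arid1a_Het was 0.658 of that in Ctrl and 0.775 of that in WT. An exact permutation test over the 3 genotypes gave p = 0.0179, or 0.0804 after Benjamini-Hochberg adjustment over the 9 levels and ratios tested, so it did not pass. The least p this test can give is 0.00357, and the pairwise exact tests cannot go below 0.1, the value both pairs with Arid1a_Het had.

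Set against the geometric mean of 8 core subunits in the same library, Arid1a showed the same order. The log2 ratio was 0.01, -0.09 and -0.18 in WT, -0.02, -0.13 and 0.19 in Ctrl, and -0.53, -0.70 and -0.84 in Arid1a_Het. Arid1a_Het lay below the other 6 libraries without overlap, as did 0.812% of the tested genes relative to the same core. The ratio in Arid1a_Het was 0.614 of that in Ctrl and 0.659 of that in WT (exact permutation p = 0.0179, adjusted 0.0804). The core itself had a geometric mean of 11.8 ± 3.0 FPKM in WT, 14.6 ± 0.430 in Ctrl and 11.7 ± 1.78 in Arid1a_Het (SD, n = 3).

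Arid1a relative to Arid2 had mean log2 ratios of 1.15 ± 0.24 in WT, 1.19 ± 0.07 in Ctrl and 0.63 ± 0.26 in Arid1a_Het (exact permutation p = 0.0679 over the genotypes, adjusted 0.122). The Arid1a_Het libraries, at 0.91, 0.57 and 0.39, lay below all Ctrl libraries, as did 2.91% of the tested genes relative to Arid2, and Arid1a_Het 1 overlapped WT 2, at 0.89. Arid1b and Arid2 differed less between genotypes than Arid1a did when set against the core. Relative to it, Arid1b in Arid1a_Het was 0.933 of Ctrl and 0.851 of WT (exact permutation p = 0.5), and Arid2 was 0.908 and 0.949 (exact permutation p = 0.568). The ratio of Arid1b to Arid2 did not separate the genotypes (exact permutation p = 0.754), with mean log2 ratios of 0.23 ± 0.42, 0.03 ± 0.23 and 0.07 ± 0.36.

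**Figure D3:**
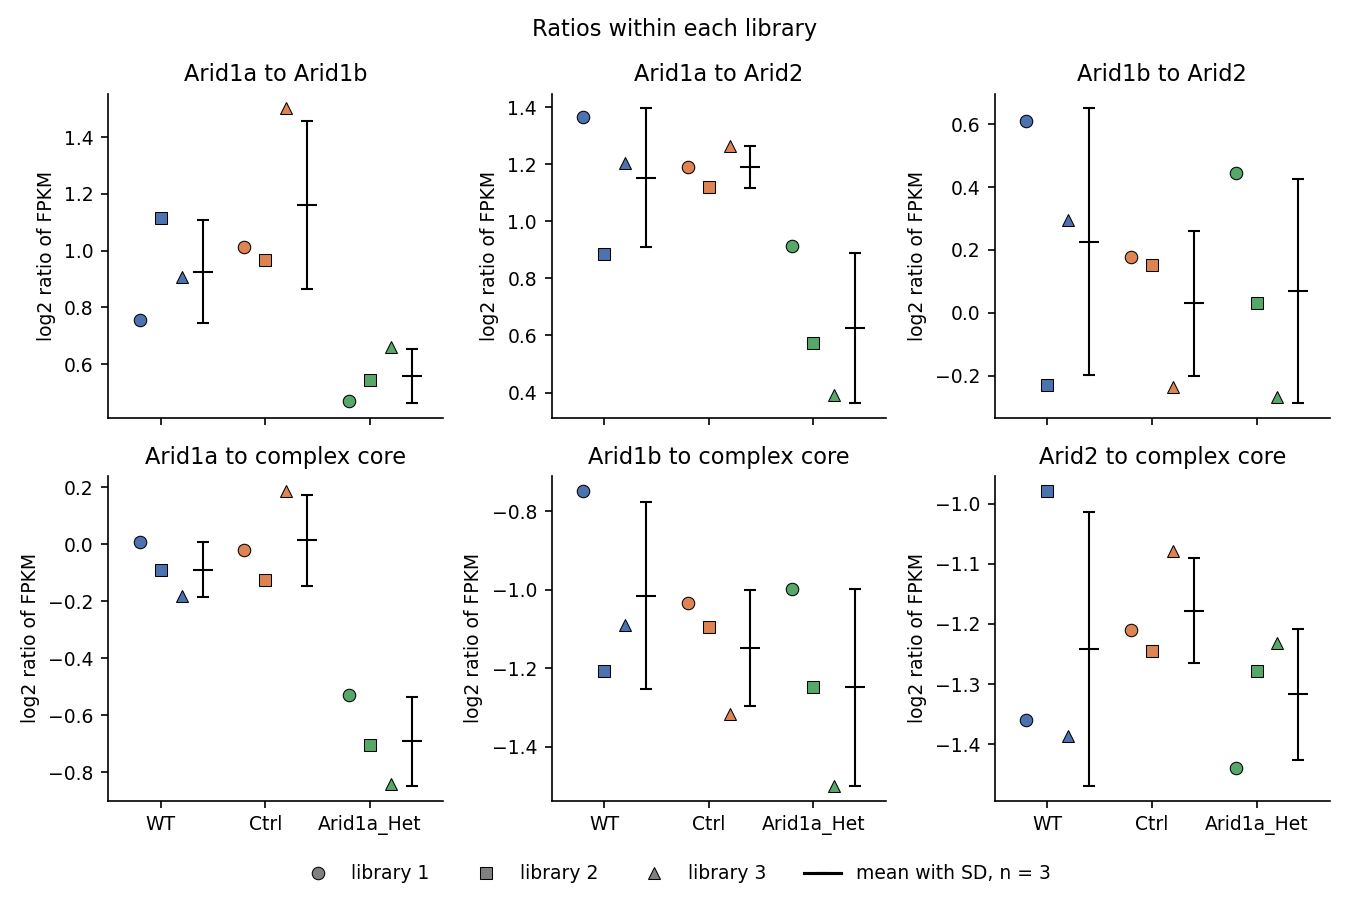
Log2 ratios of FPKM (vertical axes) between the 3 genes and to the geometric mean of 8 core subunits, 1 point per library by genotype, with mean and SD. Arid1a_Het lies below every other library for Arid1a to Arid1b (0.47, 0.54 and 0.66) and Arid1a to the core (-0.53, -0.70 and -0.84), and the genotypes overlap in the panels without Arid1a.

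As log2 FPKM, the levels themselves gave exact permutation p-values over the 3 genotypes of 0.0429 for Arid1a, 0.0357 for Arid2 and 0.521 for Arid1b, adjusted to 0.0964, 0.0964 and 0.639. After median-ratio scaling of the levels, the adjusted exact p was 0.0482 for Arid1a, Arid2 and both ratios of Arid1a to Arid1b and to the core. The ratios themselves are the same under scaling, so their adjusted values moved through the levels tested beside them. Leaving out WT 2 brought the same 4 values to 0.0402 each, so all 4 passed the threshold of 0.05 in both settings and in neither case as deposited with all libraries.

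Since a BAF complex takes 1 of the 2 paralogs, their sum was also followed, as a description without a test. Arid1a plus Arid1b amounted to 21.4, 11.4 and 18.4 FPKM in WT, 22.3, 20.2 and 21.9 in Ctrl, and 15.4, 9.94 and 11.4 in Arid1a_Het. The Arid1a_Het sums lay below all Ctrl sums, as 22.2% of the tested genes did singly, and overlapped WT through WT 2. The mean sums were 17.1 ± 5.16, 21.5 ± 1.14 and 12.2 ± 2.83 FPKM (SD, n = 3), so Arid1a_Het stood at 0.570 of Ctrl and 0.717 of WT, or 0.660 and 0.708 after scaling. Arid1a made up 62.8%, 68.4% and 65.2% of the sum in WT, 66.9%, 66.2% and 73.9% in Ctrl, and 58.1%, 59.3% and 61.2% in Arid1a_Het. Arid1a was thus the larger part in every library, also in Arid1a_Het. The share restates the ratio of Arid1a to Arid1b above and is not a separate result.

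**Figure D4:**
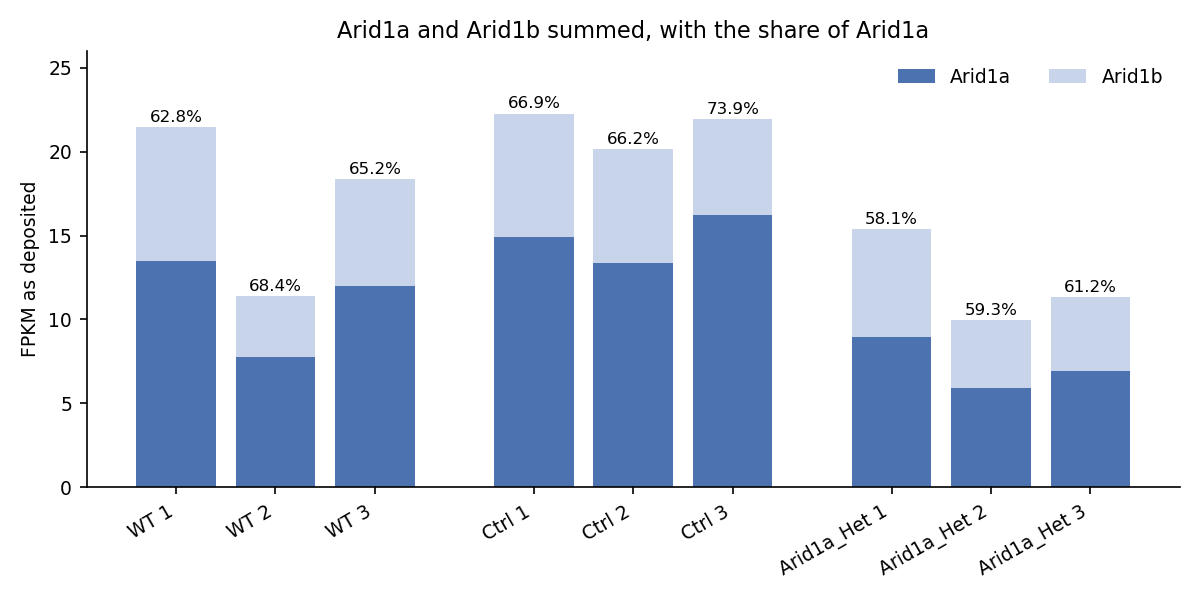
Stacked FPKM of Arid1a and Arid1b (vertical axis) in each library, with the share of Arid1a in percent above each bar. The share is 58.1% to 61.2% in Arid1a_Het and 62.8% to 73.9% in the 6 other libraries.

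The other subunits of the complexes were counted as listed, 25 besides the 3 genes, of which 23 are in the table and 20 were tested. Against Ctrl, 0 of the 20 were called in Arid1a_Het by limma and 0 by voom. An unadjusted p under 0.05 was held by 4 of them, and by 11.6% of all tested genes (limma). The median log2 fold change of the 20 was -0.30, against -0.16 over all genes, and 18 of 20 were below 0, or 13 of 20 after scaling. The median of all genes was thus itself below 0 as deposited, and the share of all genes below 0 was not counted. Against WT, 0 were called, voom called 0, and the median was -0.06 against 0.02. There 2 of the 20 had an unadjusted p under 0.05, as did 17.2% of all tested genes (limma). In Ctrl against WT 1 of the 20 was called, lower, by limma and 1 by voom, and the median was 0.26 against 0.24. Of all tested genes, limma called 7.01% higher and 3.04% lower in that comparison. An unadjusted p under 0.05 was held by 2 of the 20 and by 32.1% of all tested genes (limma). Arid1a, at -0.95, was below every one of the 20 in Arid1a_Het against Ctrl.

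Among the shared subunits, Smarcd1, a scaffold subunit, stood at 3.41 ± 0.362 FPKM in Arid1a_Het and 5.35 ± 0.334 in Ctrl, with log2 fold change -0.53 and adjusted p = 0.383 (limma). Ss18l1, a homolog of the BAF subunit SS18, followed at 1.24 ± 0.270 against 2.09 ± 0.144 FPKM, log2 fold change -0.47. Smarca2, the ATPase BRM that can replace BRG1, was at 2.58 ± 0.316 against 3.93 ± 0.962 FPKM, log2 fold change -0.44, and Bcl7a at 1.60 ± 0.340 against 2.41 ± 0.130 FPKM, log2 fold change -0.40. None of these passed, with limma adjusted p-values of 0.383 to 0.442.

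Smarcd3, the SMARCD form best known from heart and muscle, was the only listed subunit called in any comparison. It held 3.57, 12.0 and 8.75 FPKM in WT, 1.16, 1.75 and 0.947 in Ctrl, and 1.72, 4.05 and 0.934 in Arid1a_Het. Every Ctrl value lay below every WT value, as for 10.2% of the tested genes, and Smarcd3 fell by 1.88 on the log2 scale in Ctrl against WT (SE 0.43, adjusted p = 0.0274, limma). The call was lost in 8 of 22 alternatives. Without WT 2, WT 3, Ctrl 1, Ctrl 2 or Ctrl 3 the limma adjusted p was 0.0922, 0.0811, 0.0787, 0.0594 and 0.108. It was 0.0641 with no filter on low values, 0.0623 without Ctrl 1 and Arid1a_Het 3 and 0.0628 with voom after median-ratio scaling. In Arid1a_Het against WT its log2 fold change was -1.48, adjusted p = 0.106 (limma). Atp4b, the gene behind the Cre driver, held 1241, 5304 and 2654 FPKM in WT, 79.8, 427 and 272 in Ctrl, and 510.1, 1861 and 133 in Arid1a_Het. The part of parietal cells in the Smarcd3 values was not tested.

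By complex, the BAF-only list had 1 tested gene besides the members, the histone reader Dpf2, at 6.93 ± 1.64 FPKM in WT, 8.34 ± 0.349 in Ctrl and 6.92 ± 0.705 in Arid1a_Het. Of the 3 PBAF-only genes, 0 were called in any comparison (limma; 0 at an unadjusted p under 0.05, and 0 by voom). Pbrm1, the bromodomain subunit that defines PBAF beside ARID2, had log2 fold changes of -0.15 against Ctrl and 0.08 against WT in Arid1a_Het. Brd7, another bromodomain subunit, was at 7.87 ± 2.02 FPKM in Arid1a_Het and 10.4 ± 0.449 in Ctrl, and Phf10 at 7.81 ± 1.59 and 9.60 ± 0.472. Brd9, which marks the form without an ARID subunit, stood at 11.1 ± 2.01 FPKM in Arid1a_Het and 17.1 ± 1.91 in Ctrl, log2 fold change -0.58, adjusted p = 0.397 (limma).

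**Figure D5:**
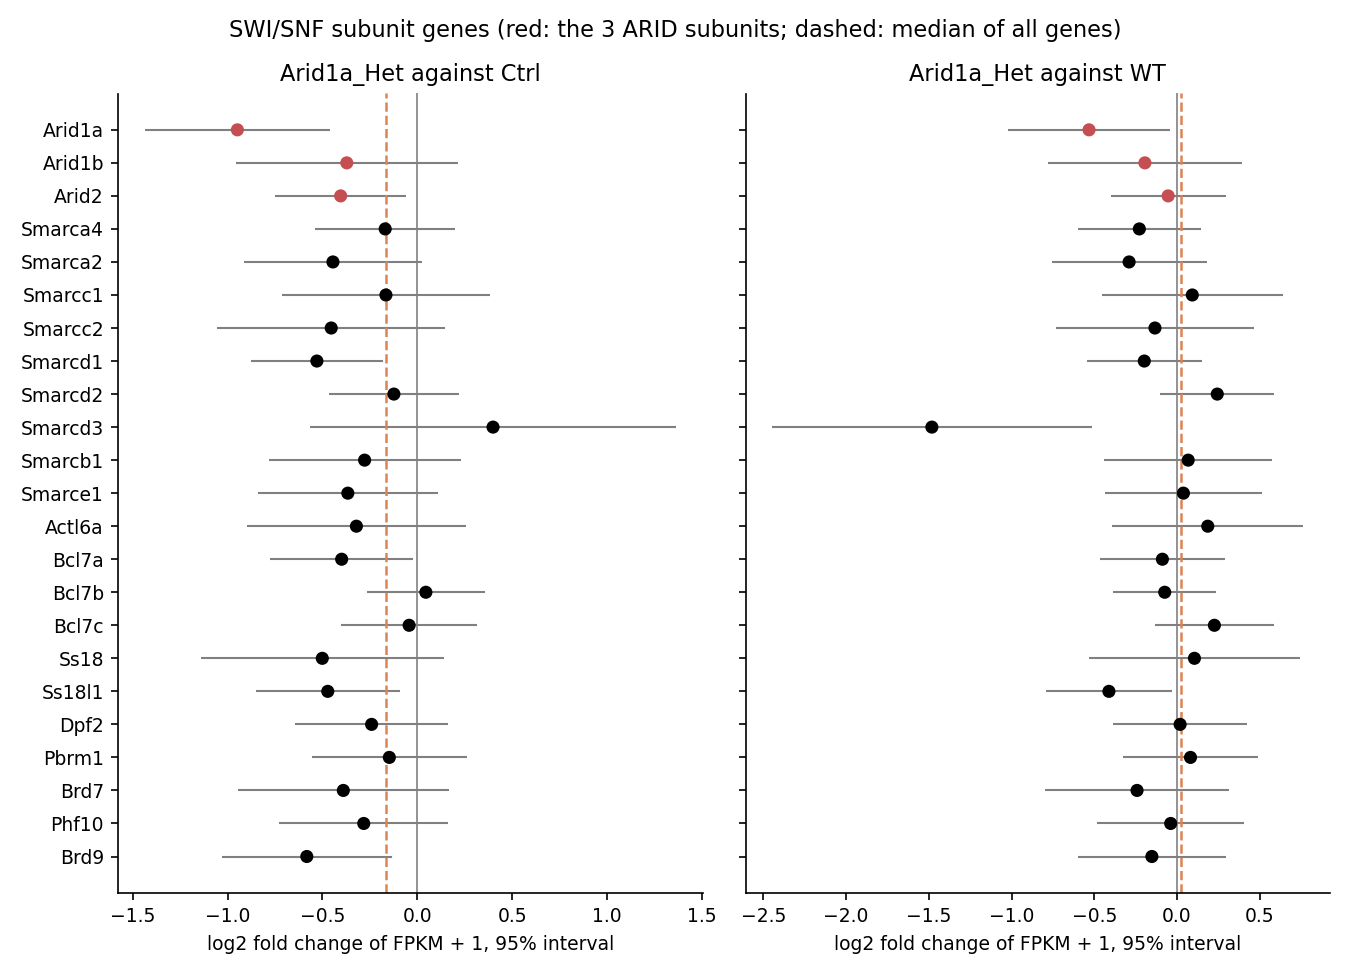
Log2 fold changes of FPKM + 1 with 95% intervals (horizontal axes) for the 3 ARID genes (red) and 20 other tested SWI/SNF subunit genes (black) in Arid1a_Het against Ctrl and against WT. The dashed line is the median of all genes, -0.16 and 0.02; Arid1a is the lowest gene in the first panel, and Smarcd3, at -1.48, in the second.

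The other genes with an ARID domain, 11 listed and 9 tested, belong to other chromatin complexes or act as DNA-binding factors. In Arid1a_Het against Ctrl 0 of 9 were called (limma; 2 at an unadjusted p under 0.05, voom 0). Their median log2 fold change was -0.31 against -0.16 over all genes. Of all tested genes, 11.6% had an unadjusted p under 0.05 here, 17.2% in Arid1a_Het against WT and 32.1% in Ctrl against WT (limma). Arid4a, a binding partner of the retinoblastoma protein, was at 6.37 ± 1.64 FPKM in Arid1a_Het and 10.4 ± 0.259 in Ctrl, log2 fold change -0.65, adjusted p = 0.386 (limma), and 6.43 ± 1.25 in WT. Its relative Arid4b was at 4.62 ± 0.500 FPKM in Arid1a_Het, 6.30 ± 0.585 in Ctrl and 5.22 ± 0.300 for WT. The histone H3 lysine demethylase Kdm5b was at 4.90 ± 0.989, 5.63 ± 0.550 and 3.85 ± 0.686 FPKM in the same order. Against WT 0 of 9 were called in Arid1a_Het (limma; 0 at an unadjusted p under 0.05, voom 0), with a median of -0.02 against 0.02, and 0 of 9 in Ctrl against WT (limma; 2 at an unadjusted p under 0.05, voom 0), with a median of 0.30 against 0.24.

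The 10 tested protein-coding genes nearest to Arid1a by start site, 5 on each side, were read beside it on chromosome 4. In Arid1a_Het against Ctrl 0 of the 10 were called (limma; 1 at an unadjusted p under 0.05, voom 0). Their log2 fold changes ran from -0.96 to 0.07 with a median of -0.28, against -0.16 over all tested genes. Of all tested genes, 11.6% had an unadjusted p under 0.05 in that comparison (limma). Against WT 0 were called in Arid1a_Het by limma and 0 by voom. There 0 had an unadjusted p under 0.05, against 17.2% of all tested genes (limma). In Ctrl against WT 1 of the 10 was called, higher, by limma and by voom, where limma called 7.01% of all tested genes higher. An unadjusted p under 0.05 was held by 4 of the 10 and by 32.1% of all tested genes (limma). All 10 were above 0 as deposited, from 0.01 to 1.82, though from -0.25 to 1.56 after median-ratio scaling. As deposited their median was 0.33, against 0.24 over all tested genes. The gene called was Zdhhc18, a palmitoyltransferase gene, at 4.56 ± 1.48 FPKM in WT, 11.9 ± 3.88 in Ctrl and 7.44 ± 1.96 in Arid1a_Het, with a log2 fold change of 1.22 in Ctrl against WT (adjusted p = 0.0313, limma). That call was lost in 7 of 23 alternatives, namely without WT 2, WT 3, Ctrl 1, Ctrl 2 or Ctrl 3, without both libraries with pancreatic enzymes and with no filter on low values, at limma adjusted p-values of 0.0548 to 0.116. Pigv, an enzyme of GPI anchor synthesis whose start site is the nearest, was at 3.43 ± 0.640 FPKM in WT, 4.01 ± 0.251 in Ctrl and 3.39 ± 0.0969 in Arid1a_Het. Rps6ka1, a ribosomal S6 kinase on the other side, was at 46.9 ± 6.67, 47.3 ± 5.22 and 49.7 ± 4.71 FPKM in the same order. Hmgn2, a nucleosome-binding protein gene, was the only neighbour with a lower fold change than Arid1a, at 0.971 ± 0.746 FPKM in Arid1a_Het and 2.69 ± 0.939 in Ctrl. Hmgn2 has near-identical copies elsewhere in the genome, so its value is uncertain.

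Over the 9 libraries pairs of the 3 genes were correlated as deposited. For log2 FPKM of Arid1a and Arid1b, Pearson's r was 0.796 (exact permutation p = 0.0136, adjusted over 6 relations 0.0408) and Spearman's rho 0.667 (exact permutation p = 0.0589, adjusted 0.118). Without the 2 libraries farthest from the median of Arid1a it was 0.656. For Arid1a and Arid2 r was 0.854 (exact permutation p = 0.00390, adjusted 0.0234), rho 0.800 (exact permutation p = 0.0138, adjusted 0.0415), and r was 0.935 without those 2 libraries. For Arid1b and Arid2 r was 0.638 (exact permutation p = 0.0679, adjusted 0.102), rho 0.483 (exact permutation p = 0.194, adjusted 0.291) and r 0.07 without 2 libraries. After median-ratio scaling the 3 values of r were 0.628, 0.702 and -0.06, and none passed (adjusted exact p = 0.219, 0.206 and 0.878). With genotype means subtracted first, the 3 values of r were 0.876, 0.760 and 0.578 as deposited and 0.681, 0.005 and -0.655 after scaling. The relations of Arid1a with Arid1b and Arid2 therefore depended on how the libraries were scaled.

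Since Cre is driven from a parietal cell gene, each member was also set against the 12 parietal markers. Members were taken as log2 FPKM and the markers as their mean log2(FPKM + 1). As deposited, r was -0.403 for Arid1a (exact permutation p = 0.277, adjusted 0.277), -0.452 for Arid1b (exact permutation p = 0.222, adjusted 0.266) and -0.747 for Arid2 (exact permutation p = 0.0226, adjusted 0.0452). Spearman's rho was -0.433, -0.400 and -0.800, with exact permutation p-values of 0.250, 0.291 and 0.0138, adjusted to 0.291, 0.291 and 0.0415. Without the 2 libraries farthest from the median of the parietal markers, WT 2 and WT 3, r was -0.463, -0.245 and -0.790. After scaling r was -0.188, -0.169 and -0.347, none of which passed (adjusted exact p from 0.722 to 0.794). With genotype means subtracted first, r was -0.659, -0.594 and -0.861 as deposited and -0.417, -0.477 and -0.099 after scaling, without a test.

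The tested named genes whose log2(FPKM + 1) most resembled that of each member over the 9 libraries were then listed by Pearson's r, as a description. For Arid1a they were Braf, Inpp4a, Brwd1, Kdm4b and Phc3, at r of 0.977 to 0.986 among 10662 genes, of which 1 of 5, Brwd1, stayed in the first 5 after scaling. Braf, a kinase of the MAP kinase cascade, held 2.48 ± 0.522 FPKM in WT, 2.98 ± 0.221 in Ctrl and 1.98 ± 0.288 in Arid1a_Het. Brwd1, a bromodomain protein gene, held 2.30 ± 0.786, 3.07 ± 0.385 and 1.62 ± 0.329 FPKM, and had rank 3 as deposited and rank 1 after scaling (r = 0.969). For Arid1b they were Smc6, Sin3a, Pyroxd1, Vps54 and Fan1 (r of 0.979 to 0.986), of which 4 of 5 stayed in the first 5 after scaling, led by Sin3a, the scaffold of a histone deacetylase complex (r = 0.984). For Arid2 they were Sltm, Yy2, Tgs1, Lsm11 and Phf20l1 (r of 0.973 to 0.985), of which 1 of 5 stayed. Values as deposited share the totals of each library, and Arid1b ranked only 1307th and Arid2 626th in likeness to Arid1a.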

How the data were processed

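Poly(A) RNA libraries, 3 each of WT, Ctrl and Arid1a_Het glands, were prepared with a kit for stranded mRNA libraries, per the labels' protocols. The authors deposited FPKM values per gene symbol. The submitters' processing notes name STAR 2.4.2a, GRCm38 and mm10; the counting tool is not given in the sources used here. Groups came from the labels' genotypes. Members and gene lists were chosen with earlier results of these data known.

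Whole reads were recovered from FPKM steps (100% of 18423 genes whole within 0.01), at 22663391 to 29487302 reads per library. They served depth, the read numbers and counting intervals of the members, and limma voom only.

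Differences were tested in R 4.3.3 with limma 3.58.1 (lmFit, trended eBayes) on log2(FPKM + 1), all 9 libraries in 1 fit of 3 group means. Genes reaching an FPKM of 1 in 3 or more libraries (11209; 7214 left out) were tested at a Benjamini-Hochberg adjusted p under 0.05. The fit was tested on simulated data. Exact permutation tests were two-sided for pairs and enumerated all 1680 assignments for 3 genotypes. Named genes were the members, the 4 tested genes of lowest p and any called gene of each list, the 5 nearest neighbours of Arid1a on each side and the 5 genes most like each member; a part of these is printed.

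Same-numbered WT and Ctrl libraries deviated together (correlations 0.207, 0.336 and 0.138, all over 0.1). Their numbers were therefore taken to pair them, on the data alone. Those of Arid1a_Het did not meet this for every number. Their correlations for numbers 1 to 3 were 0.252, 0.563 and -0.279 with WT and -0.151, 0.467 and -0.020 with Ctrl. The main fit and exact tests use no pairing, and the replicate block was an alternative over all 9 libraries. Alternatives were other pseudocounts, filters, scalings, spread estimates, the block and each library left out. Sequences and positions are from GENCODE M21 (GRCm38). Python 3.11.15, numpy 2.4.6, pandas 2.3.3, scipy 1.17.1 and matplotlib 3.10.9 were used.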

Additional observations from a re-analysis of the deposited data

How the results depend on the processing

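Of 23 alternatives per gene and comparison, Arid1a kept its direction in all of them in each comparison, and so did Arid1b and Arid2 in Arid1a_Het against Ctrl. Array weights, whose estimation stopped before convergence, called Arid1a in Arid1a_Het against WT (log2 fold change -0.59) and in Ctrl against WT (0.27), and Arid2 in Ctrl against WT (0.28). Median-ratio scaling with the replicate block, added after the data were seen, called Arid1a against WT (-0.57, adjusted p = 0.0498, limma). The replicate block alone changed no call of a member: its limma adjusted p for Arid1a was 0.117, 0.0883 and 0.0855 in the 3 comparisons. Arid1b in Ctrl against WT changed sign with median-ratio scaling (-0.045), quantile normalization (-0.12), voom with median-ratio scaling (-0.051) and scaling with the block (-0.045), and with libraries left out ran from -0.10 to 0.39. With libraries left out in Arid1a_Het against WT, Arid1b ran from -0.47 to 0.014 and Arid2 from -0.14 to 0.039. The correlation of Arid1b with Arid2 was -0.061 after scaling. The cause was not tested in any of these cases.

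The number of genes called in Arid1a_Het against Ctrl, Arid1a_Het against WT and Ctrl against WT, 1, 308 and 1127, moved over 1.5 times as follows. With the replicate block it was 2, 691 and 2473, with scaling and block 3, 645 and 2491, with array weights 7, 1384 and 5710, and without Ctrl 1 and Arid1a_Het 3, the libraries with pancreatic enzymes, 21, 115 and 707. For the first comparison it was 0 with a pseudocount of 0.1 or 0.01 and with voom, as deposited or scaled, 4 without a filter, 2 with a minimum FPKM of 5 or quantile normalization and 5 with only the 2 groups. For the second it was 140 without a filter and 105 with only the 2 groups, and for the third 748 with a minimum FPKM of 5. With each library left out the counts ran from 1 to 22, from 91 to 720 and from 260 to 1465. The 95% counting interval of a member's value reached 2.80% to 5.85% above it. With 3 libraries a genotype, the spread between them set the width of each fitted interval.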
